A study of Mus musculus with 2 samples.

Results

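The histone cluster genes of the mouse, those whose symbols start with Hist1h, Hist2h, Hist3h or Hist4h, were followed here through 2 single-cell RNA libraries of differentiating embryonic stem cells. The choice by symbol took 67 of the 31053 genes in the feature list and used no measured value: 6 H1, 18 H2A, 18 H2B, 12 H3 and 13 H4 genes. Both libraries came from the MM13 mouse embryonic stem cell line at day 9 of a differentiation toward spinal sensory interneurons, 1 culture labelled RA (retinoic acid) and the other RA+BMP4 (retinoic acid with bone morphogenetic protein 4). No genetic change, transgene, dose or time of addition is named in the labels, and dead cells had been removed from both suspensions before capture on the 10x Genomics Chromium 3′ platform, version 3 chemistry. Each condition had 1 library, so no error between cultures could be estimated and no test was made. Intervals in brackets are 95% intervals for counting error alone, exact Clopper-Pearson for shares of cells, exact Poisson for sums and exact conditional binomial for ratios.

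After a filter of at least 1000 genes and at most 10% mitochondrial counts, and removal of called doublets, 5896 of 9704 RA barcodes and 8333 of 13121 RA+BMP4 barcodes were kept. They held 108795503 and 101567226 unique molecular identifiers (UMIs, 1 for each captured RNA molecule). RA was the deeper library, at a median of 14191.5 UMIs per kept cell against 10464, and its median mitochondrial percentage was 6.06% against 4.22% in RA+BMP4. The same barcode sequence occurred in both libraries 43 times, 21 times among kept cells. Levels are given as CPM, the UMIs of a gene summed over the cells of a group, per 1000000 UMIs of all genes in those cells. In such sums, fewer cells that express a gene and less of its RNA in each cell cannot be told apart. Each library held cells of many kinds, although the labels call both samples neurons. Clusters named from neuron markers, called neuron-like here, held 1954 of the RA cells and 2953 of the RA+BMP4 cells. Newborn neuron-like clusters, and clusters 14 and 16, led by neuronal genes but left unnamed, are not in these counts. At clustering resolution 1.5 the counts were 2668 and 3044.

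Most of these genes make the histones that package newly copied DNA, and cells transcribe them chiefly in S phase, when DNA is replicated. Their mRNAs are unusual in ending in a short stem-loop in place of a poly(A) tail. The stem-loop binding protein Slbp holds that end through processing, export and translation, and the mRNA is degraded when replication stops. Some of these genes can also give longer mRNAs with a poly(A) tail, in particular in cells that have left the cycle. The library chemistry primes on runs of A, so the UMI count of a histone gene depends on how its mRNA ends, and counts of different members are not read as relative amounts of mRNA.

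The stem-loop shows how alike the members are at the end that sets the fate of their mRNA, and 8 examples stand for all the forms found. It was searched as 16 bases whose first and last 6 pair fully, starting with GG and with T at bases 6 to 8, after the stop codon of the GENCODE vM21 transcripts (GRCm38). It was found in 44 of the 67 members, always within 100 bases of the stop. Of 47319 coding transcripts of other genes with at least 100 bases after the stop, 4 had it in those 100 bases (0.00845%). One form, that of Hist3h2ba below, was shared by 26 members of the H1, H2A, H2B and H3 families. The form of Hist1h4d was found in 7 H4 genes, that of Hist1h3c in 6 genes, those of Hist1h4i and Hist1h4j in 2 genes each, and that of Hist2h2ac in 1 gene. Capitals mark the stem-loop, lower case the 7 bases on either side, 5′ to 3′ and written as DNA.
Hist3h2ba: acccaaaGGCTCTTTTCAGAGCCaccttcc
Hist3h2a: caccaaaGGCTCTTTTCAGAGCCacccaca
Hist1h1e: acccaaaGGCTCTTTTCAGAGCCacccaca
Hist1h4d: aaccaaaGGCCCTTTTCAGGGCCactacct
Hist1h3c: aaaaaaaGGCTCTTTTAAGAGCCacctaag
Hist1h4i: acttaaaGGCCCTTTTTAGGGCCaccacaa
Hist1h4j: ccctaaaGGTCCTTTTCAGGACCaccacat
Hist2h2ac: ccaaaaaGGCTCTTTTTAGAGCCaccaaat
Hist1h1e and Hist3h2a carry the same 16 bases as Hist3h2ba. The annotated transcript runs 169 bases past the stem-loop in Hist3h2ba, 1643 in Hist3h2a, 1153 in Hist1h1e and 770 in Hist1h4d, against 74 in Hist1h3c and 3 in Hist1h2ap. In 13 members, Hist1h1b among them, the model stops at the stop codon, so a stem-loop could not be searched. The models of Hist1h2af and Hist1h2ah have only 1 and 2 bases after the stop, also too few to hold it. That of Hist1h1a has 48, so a stem-loop further on would be missed.

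Nearly all members were detected, and a few carried most of the counts. At least 1 UMI was found for 66 of the 67 genes, 66 in RA and 65 in RA+BMP4. Of all 31053 genes in the feature list, 23196 in RA and 22981 in RA+BMP4 had at least 1 UMI. At least 10 UMIs over both libraries were found for 64, at least 100 for 57, at least 1000 for 25 and at least 10000 for 10. Hist1h4m had no UMI, a count of 0 that allows up to 3 UMIs in either library. Hist1h2bq had 1 UMI and Hist2h2aa2 had 3, and all 50-base stretches of the Hist2h2aa2 transcript also occur in another member. The sequence shared with other members was at least 80% in 15 genes, whose median was 153 UMIs, and lower in 52 genes with a median of 685.5. How the submitters' pipeline treated reads that fit several members is not given in the sources used here, so single values of the 15 genes, such as Hist1h2ap (93.1% shared), Hist1h3i (87.6%) and Hist1h2an (85.8%), are uncertain.

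All members together gave 204937 UMIs in RA and 208574 in RA+BMP4, or 1884 and 2054 CPM. The member with most UMIs, Hist1h1b, held 24.1% of them, the top 3 held 59.1% and the top 10 held 86.6%. Linker histones of the H1 family, which bind the DNA that enters and leaves the nucleosome, gave 49.1% of member UMIs from only 6 genes. Hist1h1b (ENSMUSG00000058773, GRCm38 chr13:21779883-21780625, minus strand) had 505 CPM in RA and 441 in RA+BMP4. Hist1h1e (chr13:23620629-23622558, minus strand) had 264 and 371 CPM, and Hist1h1a 69.8 and 77.4 CPM. Hist1h1c had 52.2 and 66.6 CPM and Hist1h1d 40.5 and 43.2 CPM, whereas Hist1h1t, the linker histone known from spermatocytes, had only 54 and 28 UMIs.

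Among the core histones, which form the nucleosome itself, H2B genes gave 22.8% of member UMIs, H2A genes 14.6%, H3 genes 8.01% and H4 genes 5.59%. A single H2B gene, Hist3h2ba (ENSMUSG00000056895, chr11:58948920-58949533, plus strand), gave 83.0% of the H2B counts, with 294 and 454 CPM. The next H2B genes were far lower, Hist1h2bc with 16.6 and 21.0 CPM and Hist2h2bb with 13.04 and 14.45 CPM. For H2A, Hist1h2ap (chr13:21833026-21833507, minus strand) had 128 and 65.8 CPM, Hist1h2ae 86.4 and 61.2 CPM, and Hist3h2a (ENSMUSG00000078851, chr11:58954685-58956830, plus strand) 62.48 and 65.45 CPM. For H3, Hist1h3c had 91.1 and 95.3 CPM, Hist1h3e 26.5 and 31.5 CPM and Hist1h3i 11.15 and 17.83 CPM. For H4, Hist1h4d had 74.4 and 84.4 CPM, Hist1h4h 11.74 and 11.95 CPM and Hist1h4i 6.77 and 9.55 CPM. Of the 67 genes, 54 lie on chromosome 13, 10 on chromosome 3, 2 on chromosome 11 and 1 on chromosome 6, and the pair on chromosome 11, Hist3h2ba and Hist3h2a, gave 22.1% of all member UMIs.

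The next comparison set the members against the cell cycle. Cells thinned to 5000 UMIs were scored with lists of 39 S phase and 53 G2 and M phase genes that held no histone gene, chaperone or processing factor. A cell with neither score above 0 was put in the class called neither here, and other cells took the phase of the higher score. This gave 816 S, 1167 G2/M and 3726 neither cells in RA, and 868, 1445 and 5452 in RA+BMP4. The classes are ranges of a score, and 143 RA and 176 RA+BMP4 cells of the S class had an S score within 0.05 of 0. How many cells lay near the boundary between the S and G2/M classes, where both scores are equal, was not counted. S cells were deeper than neither cells before thinning, with medians of 20310.5 against 12944 UMIs in RA and 15157 against 9986 in RA+BMP4.

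Summed over all members, S cells had 2806 CPM and neither cells 1033 CPM in RA, a ratio of 2.72 [2.68 to 2.75]. In RA+BMP4 the levels were 2782 and 1346 CPM, a ratio of 2.07 [2.04 to 2.09]. G2/M cells had 2621 CPM in RA, below S cells, and 3196 in RA+BMP4, above them. The sum hides opposite patterns, because Hist3h2ba made up a large part of the counts in neither cells. Without Hist3h2ba and Hist3h2a the S ratios were 6.82 in RA and 4.62 in RA+BMP4. Neuron-like cells made up 1879 of the 3726 neither cells in RA and 2699 of the 5452 in RA+BMP4, and without them the ratios over all members were 3.65 and 2.86.

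Of 54 members with at least 1 CPM in S or neither cells of RA, 46 were at least 2-fold higher in S, where 14.6% of all genes were. In RA+BMP4 it was 39 of 51 members, against 12.7% of all genes, and those 39 were higher in both libraries. Only Hist3h2ba and Hist3h2a were at least 2-fold lower in S, in RA as in RA+BMP4, where 15.8% and 13.9% of all genes were. The median log2 ratio of the members was 2.58 in RA and 2.41 in RA+BMP4, beside -0.08 and -0.13 for all genes. Since 1 library of each condition was compared within itself, cells of the same culture were the only units, and these ratios describe the libraries.

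**Figure D1:**
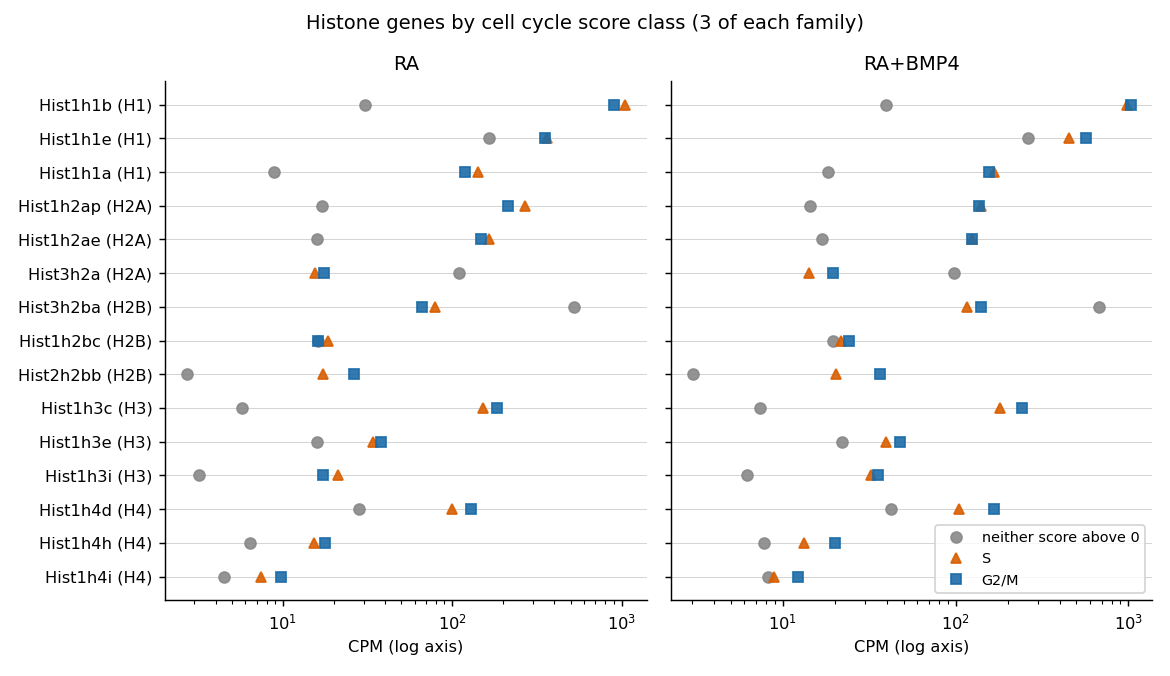
CPM (log axis) of the 3 members of each family with most UMIs, in neither (grey circles), S (orange triangles) and G2/M cells (blue squares) of the RA and RA+BMP4 libraries, 1 value per phase class. Grey points lie to the left except for Hist3h2ba and Hist3h2a, where they lie to the right, and Hist1h2bc, where the 3 points nearly coincide.

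Hist1h1b had the most UMIs of the members. It had 30.7 CPM in neither and 1046 CPM in S cells of RA, 34.1-fold more, and 39.8 and 982 CPM in RA+BMP4, 24.7-fold more. After thinning, 59.9% of RA S cells [56.5 to 63.3] and 10.9% of neither cells [9.89 to 11.9] had a Hist1h1b UMI. The share among neuron-like cells was 6.91% in RA and 9.09% in RA+BMP4, and is set beside these shares as a comparison level. The class was not shown to be wholly out of the cycle. Its cluster 12, led by Atoh1, had 33.2 and 47.7 CPM of Hist1h1b, against 15.9 and 22.2 CPM in the whole class. Median depths before thinning were 20310.5 UMIs in S and 12238 in neuron-like cells of RA, and the shares without thinning were 80.15% and 16%.

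Other members differed by phase to different degrees. Hist1h3c, an H3 gene, had 5.69 CPM in neither and 152 CPM in S cells of RA, and 7.37 and 181 CPM in RA+BMP4. Hist1h2ap had 16.9 and 269.6 CPM in RA and 14.4 and 141 CPM in RA+BMP4. Hist1h1e differed much less, with 165 and 362 CPM in RA and 262 and 451 CPM in RA+BMP4, ratios of 2.19 and 1.72. With both libraries summed, the 5 highest ratios of S over neither belonged to Hist1h2aa (56.0 [29.7 to 118.7]), Hist1h2af (46.5), Hist1h1b (28.8), Hist1h3c (25 [23.1 to 27.0]) and Hist1h3b (23.6). Hist1h2aa rested on 183 UMIs in S and 10 in neither cells, and nearly all of its UMIs lay in pluripotent-like cells, described below.

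At the other end, Hist3h2ba had 526 CPM in neither and 79.0 CPM in S cells of RA, a ratio of 0.150, and 674 and 116 CPM in RA+BMP4, a ratio of 0.172. Hist3h2a had 109.9 and 15.4 CPM in RA and 97.8 and 14.1 CPM in RA+BMP4. With both libraries summed their ratios were 0.157 [0.152 to 0.163] and 0.144 [0.132 to 0.157]. Hist2h3c2 followed at 0.481 [0.230 to 0.914], on 112 UMIs in all, and the intervals of Hist1h4j (0.803) and Hist2h2be (0.978) held 1. Hist1h2bc was close to level at 1.11 [1.02 to 1.21]. Neither cells held 27782 Hist3h2ba UMIs in RA and 39028 in RA+BMP4, and neuron-like cells of any phase held 19687 and 29967. The phase ratios of Hist3h2ba thus overlap with the contrast of neuron-like over other cells, and the part of the cell class was not tested. Within roof plate-like cells its gap was smaller, as given below. The usual name, replication-dependent histone genes, says more than the summed counts of Hist3h2ba and Hist3h2a show. The set is therefore called here by its gene symbols.

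**Figure D2:**
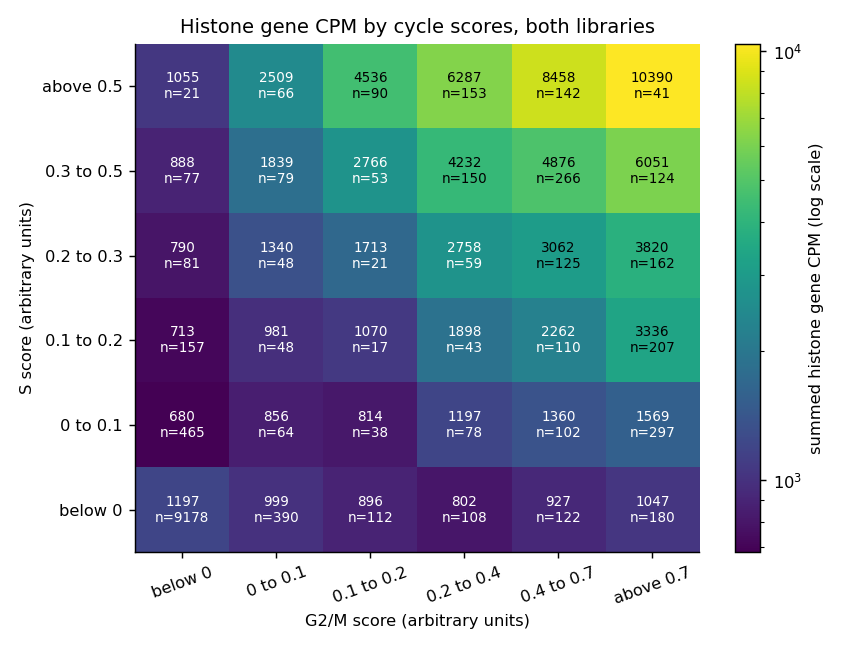
Summed CPM of all 67 genes (colour, log scale, and upper number in each field) by S score (vertical axis) and G2/M score (horizontal axis) of thinned cells of both libraries, with the number of cells below it. CPM rises toward the upper right, where both scores are high, and along the lower and left edges no field is above the 1197 CPM of the 9178 cells with both scores below 0.

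The members were highest in cells where both scores were above 0. Those 1314 RA and 1269 RA+BMP4 cells had 3295 and 4098 CPM. Cells with only the S score above 0 had 676 and 789 CPM, and cells with only the G2/M score above 0 had 781 and 1111 CPM, both below the neither cells. On a grid of the scores, the 41 cells of both libraries with an S score above 0.5 and a G2/M score above 0.7 had 10390 CPM, and the 9178 cells with both scores below 0 had 1197. The lowest field had 679.5 CPM, in 465 cells with an S score from 0 to 0.1 and a G2/M score below 0.

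Cell classes came from clusters formed without the histone genes and without the markers that name them, so the levels of the members did not enter the classes. Progenitor-like cells, named from neural progenitor genes such as Hes5 and Sox21, had the highest sums of a named class, with 4023 CPM [3989 to 4058] in RA and 4156 [4088 to 4224] in RA+BMP4. Cluster 3, which had no class marker among its leading genes and was led by the mitotic genes Cenpf, Pimreg and Aspm, had 4001 and 4619 CPM. Pluripotent-like cells had 2052 and 2159 CPM, mesenchyme-like cells 1831 and 2179 CPM and neuron-like cells 1335 and 1750 CPM. Newborn neuron-like cells had 746 and 1065 CPM. Roof plate-like cells had 617 CPM in RA and 1059 in RA+BMP4. Neighbours in this order differed by more than their counting intervals in both libraries, except progenitor-like cells and cluster 3 in RA, mesenchyme-like and pluripotent-like cells in RA+BMP4, and newborn neuron-like and roof plate-like cells in RA+BMP4.

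**Figure D3:**
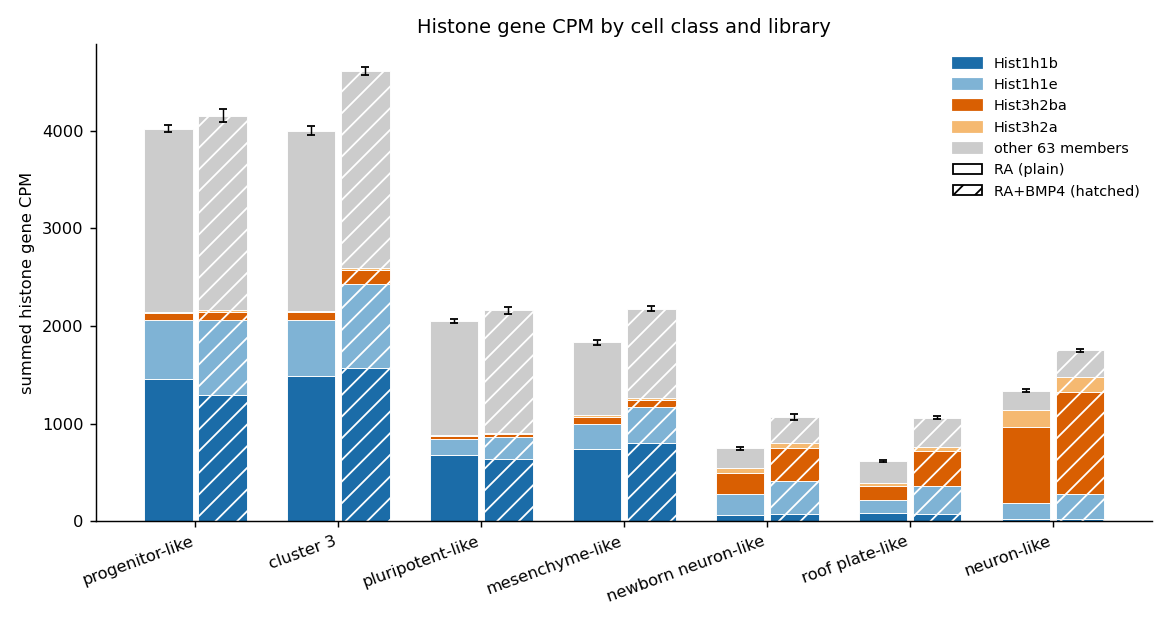
Summed CPM of the 67 genes in 6 named cell classes and cluster 3 (bars starting at 0, plain for RA and hatched for RA+BMP4), divided into Hist1h1b, Hist1h1e, Hist3h2ba, Hist3h2a and the other 63 members. Error bars are exact Poisson 95% intervals of the sum, for counting error only; Hist1h1b is a large part of the first 4 pairs of bars and Hist3h2ba of the last.

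The makeup of these sums differed more than their size. In pluripotent-like cells of RA, Hist1h1b gave 33.1% of the member UMIs. In neuron-like cells Hist3h2ba gave 58.6% of them in RA and 59.4% in RA+BMP4, and 49.1 and 46.8 Hist3h2ba UMIs were counted for each Hist1h1b UMI. Neuron-like cells had 15.9 CPM of Hist1h1b in RA and 22.2 in RA+BMP4, against 653 and 607 CPM in all other kept cells, ratios of 0.0244 and 0.0366. Hist1h3c had 3.10 and 4.75 CPM in neuron-like cells against 118 and 131 CPM in the others. Of 53 members with at least 1 CPM in either set of RA cells, 42 were at least 2-fold lower in neuron-like cells, where 23% of all genes were. In RA+BMP4 it was 38 of 51 members, against 21.1% of all genes, and the same 38 were lower in RA. Because cells were grouped by other genes, the members took no part in the choice, but neuron-like cells were nearly all in the neither class, and the part of the phase in these ratios was not tested.

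Higher in neuron-like cells by at least 2-fold were 4 members in RA, where 15.5% of all genes were, and 4 in RA+BMP4, where 16.1% were. These shares of the members, 7.55% and 7.84%, were below the shares of all genes. Hist3h2ba, an H2B gene, had 782 CPM in neuron-like and 147 CPM in other cells of RA, a ratio of 5.30 [5.18 to 5.42]. In RA+BMP4 it had 1040 and 221 CPM, a ratio of 4.70 [4.61 to 4.79]. Its neighbour Hist3h2a, an H2A gene, had 169.9 and 30.2 CPM in RA and 156 and 29.5 CPM in RA+BMP4, ratios of 5.63 and 5.30. The other cells include clusters 14 and 16, led by neuronal genes but left unnamed. Without them the other cells of RA had 93.6 CPM of Hist3h2ba and the ratio was 8.35 [8.13 to 8.58], and the ratio of Hist3h2a in RA was 8.10. In RA+BMP4 the ratios without them were 5.17 and 5.83. The same 4 members passed 2-fold in each library without these clusters. The H3 gene Hist2h3c1 was higher in both libraries at far lower levels, with 1.63 and 0.634 CPM in RA and 1.25 and 0.509 CPM in RA+BMP4. Hist2h3c2 had a ratio of 3.13 [1.89 to 5.19] in RA and 3.32 [1.76 to 6.38] in RA+BMP4, where it did not reach 1 CPM. Hist1h4j passed in RA+BMP4 alone, with a ratio of 2.52 [1.65 to 3.87], and had 1.66 [0.973 to 2.77] in RA; the difference between the libraries was not tested.

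**Figure D4:**
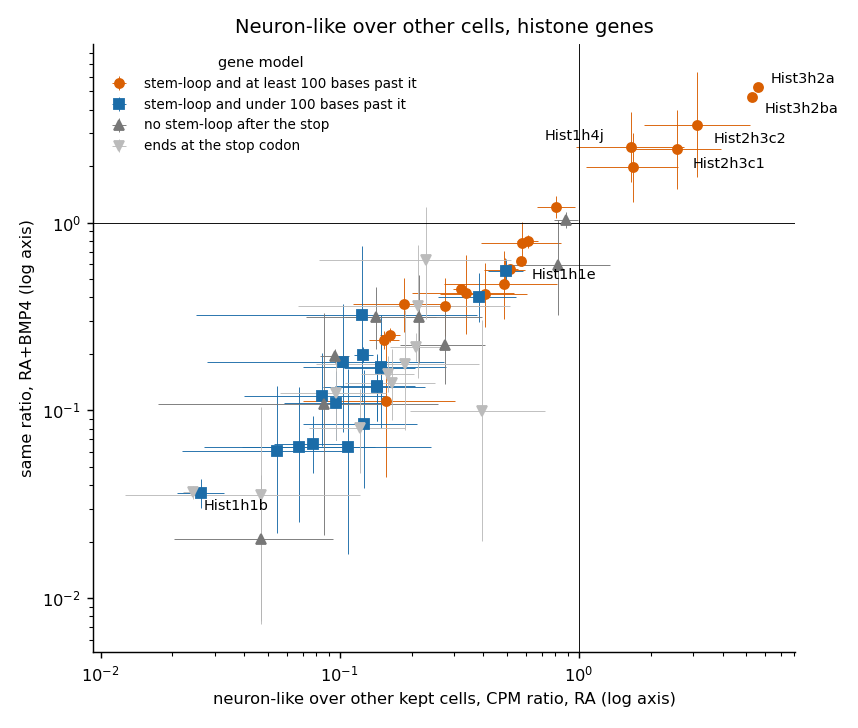
Ratio of CPM in neuron-like over all other kept cells in RA (horizontal, log axis) and RA+BMP4 (vertical, log axis) for the 57 members with at least 100 UMIs, with exact 95% intervals for counting error. Colours and symbols give the transcript model; Hist3h2ba and Hist3h2a lie at the upper right and Hist1h1b at the lower left, and all points to the right of 1 are circles, whose models run at least 100 bases past the stem-loop.

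Nearly every neuron-like cell carried Hist3h2ba. After thinning to 5000 UMIs it was found in 93.5% of neuron-like cells of RA [92.3 to 94.6] and 97.0% of those of RA+BMP4 [96.3 to 97.6]. In pluripotent-like cells the shares were 9.43% and 14.55%, the lowest of the classes compared. These lowest shares serve only as a comparison level, and RNA from outside the cells was not estimated. Before thinning, the shares were 99.1% and 99.2% in neuron-like and 62.3% and 51.5% in pluripotent-like cells, where the cells deep enough for thinning had median depths of 54312.5 and 39195 UMIs. Hist3h2a was found in 54.2% and 49.2% of thinned neuron-like cells and in 4.09% and 3.64% of pluripotent-like cells.

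The level of Hist3h2ba differed among the clusters counted as neuron-like. The lowest was cluster 12, led by Atoh1 and counted as dI1-like, with 373 CPM in RA and 609.6 in RA+BMP4. The other dI1-like clusters, 7 and 11, had 733 and 899 CPM in RA and 1050 and 1289 CPM in RA+BMP4. In RA, cluster 7 had only 12 cells, with 96 UMIs of Hist3h2ba, and cluster 11 only 50 cells. The dI2-like cluster 8 had 1089 and 1241 CPM, the dI4/dILA-like cluster 6 had 856 and 983 CPM and the dI5/dILB-like cluster 10 had 767 and 998 CPM. Only 69 cells of cluster 10 were from RA+BMP4. Cluster 9, with pan-neuronal markers only, had 731 and 798 CPM. Newborn neuron-like cluster 5, led by Neurod4 and Neurog2, had 279 and 378 CPM, and cluster 15, led by Dll1, had 96.2 and 238.5 CPM. Clusters 14 and 16 stayed unnamed and were counted among the other cells, although they were led by neuronal genes such as Sst and Barhl1. They had 847.5 and 576 CPM and 1213 and 1472 CPM of Hist3h2ba, respectively. Cluster 14 held only 64 cells in RA+BMP4 and cluster 16 only 58 in RA. Mesenchyme-like cells had 72.15 and 76.93 CPM and pluripotent-like cells 29.05 and 27.58 CPM. Roof plate-like cluster 0 had 205.8 and 406.4 CPM, below neuron-like cluster 12 of the same library in both cases. Only across libraries was its RA+BMP4 level above that of cluster 12 in RA.

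All 2146 bases of Hist3h2a lie within Trim17, a gene of the TRIM family of ubiquitin ligases, on the same strand, and how reads over shared exons were assigned is not given in the sources used here. UMIs assigned to Trim17 gave 0.516 CPM in neuron-like and 0.0957 CPM in other cells of RA, and 0.347 and 0.0962 CPM in RA+BMP4, far below those of Hist3h2a. Hist1h1e and Hist1h2be share 496 bases on the same strand, and Hist1h2be gave 2039 UMIs against 66342 for Hist1h1e.

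Within a class, members also followed the phase. Mesenchyme-like S cells had 2431 CPM and neither cells 485 CPM in RA, and 2449 and 640 CPM in RA+BMP4. Progenitor-like S cells had 4538 and 5015 CPM, and the few neither cells of this class, 78 and 14, had 662 and 923 CPM. Roof plate-like cells differed from both, with 674 CPM in S and 589 in neither cells of RA, and 1118 and 1046 CPM in RA+BMP4. Hist1h1b was higher in their S cells, with 139.6 against 47.4 CPM in RA and 220.1 against 48.2 CPM in RA+BMP4. Hist3h2ba was lower in them, with 103 against 179 CPM and 218 against 387 CPM, so that the sums nearly met. Neuron-like cells called S numbered only 21 and 28, and had 35.2 and 80.7 CPM of Hist1h1b, below the 132 and 138 CPM of newborn neuron-like S cells.

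A small group of members marked the pluripotent-like cells, 320 in RA and 166 in RA+BMP4, whose cluster was led by Dppa5a, L1td1 and Zfp42. Hist1h2aa (chr13:23934462-23934851, plus strand), an H2A gene known mainly from testis, had 15.2 CPM there in RA and 32.1 CPM in RA+BMP4. These cells held 275 of its 287 UMIs in RA and 213 of its 216 in RA+BMP4. It had no UMI in mesenchyme-like and progenitor-like cells or in cluster 3 of either library. After thinning it was found in 5.03% [2.90 to 8.04] and 12.1% [7.56 to 18.1] of pluripotent-like cells. In neuron-like cells it was found in 0 of 1938 in RA, and 3 cells, the limit a count of 0 allows, would be 0.155%. This limits cells with a UMI at 5000 UMIs, not cells that express the gene. In RA+BMP4 the share was 0.0354%. Without thinning, the shares were 21.4% and 29.1% in pluripotent-like and 0.206% and 0.0708% in neuron-like cells. Hist1h1t had 2.88 and 3.47 CPM in pluripotent-like cells, and Hist1h2ba, the testis H2B gene that lies head to head with Hist1h2aa, had 0.941 and 1.21 CPM. These cells were also the deepest, with medians of 54151.5 and 38961 UMIs over all kept cells of the class, and CPM is scaled for depth.

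The comparison of the conditions asked whether adding BMP4 went with other levels of these genes. Summed over all kept cells, members had 1884 CPM in RA and 2054 in RA+BMP4, a ratio of 1.09 [1.08 to 1.10]. This difference was small and not stable. It was 1.00 [0.998 to 1.01] without Hist3h2ba and Hist3h2a, and 1.17 without Hist1h1b. It turned to 0.845 [0.837 to 0.853] under a stricter filter of 2000 genes and 5% mitochondrial counts, which left 1247 RA and 5884 RA+BMP4 cells. The 2 libraries differed in depth, mitochondrial share and cell classes as given above, and the part of each in the ratio was not tested.

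No member past these levels was 2-fold apart. Of 13 members that reached 20 CPM, 0 were 2-fold higher in RA+BMP4, beside 0.811% of all genes. As many, 0 of 13, were 2-fold lower, beside 0.601% of all genes. At 1 CPM it was 0 of 49 members in either direction, with 2.52% of all genes higher and 2.68% lower. Hist1h2ap, at 0.512, lay closest to the threshold and passed it, the only member to do so at 20 CPM, with TMM factors, median-of-ratios factors or each cell weighted equally. Under the stricter filter 3 members passed, Hist3h2ba higher and Hist1h2ap and Hist1h2ae lower. Below 1 CPM, Hist1h2ao had 39 UMIs in RA and 14 in RA+BMP4, a ratio of 0.384 [0.193 to 0.724]. The median log2 ratio of the members was 0.15 over the 13 and -0.01 over the 49, beside 0.07 for all genes in each case. Among the 57 members with at least 100 UMIs, the interval of the ratio lay above 1 for 20, below 1 for 15 and held 1 for 22, and the median ratio was 0.966. The shares, 35.1% above and 26.3% below, stand beside 44.5% and 26% of all 14930 genes with as many UMIs.

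**Figure D5:**
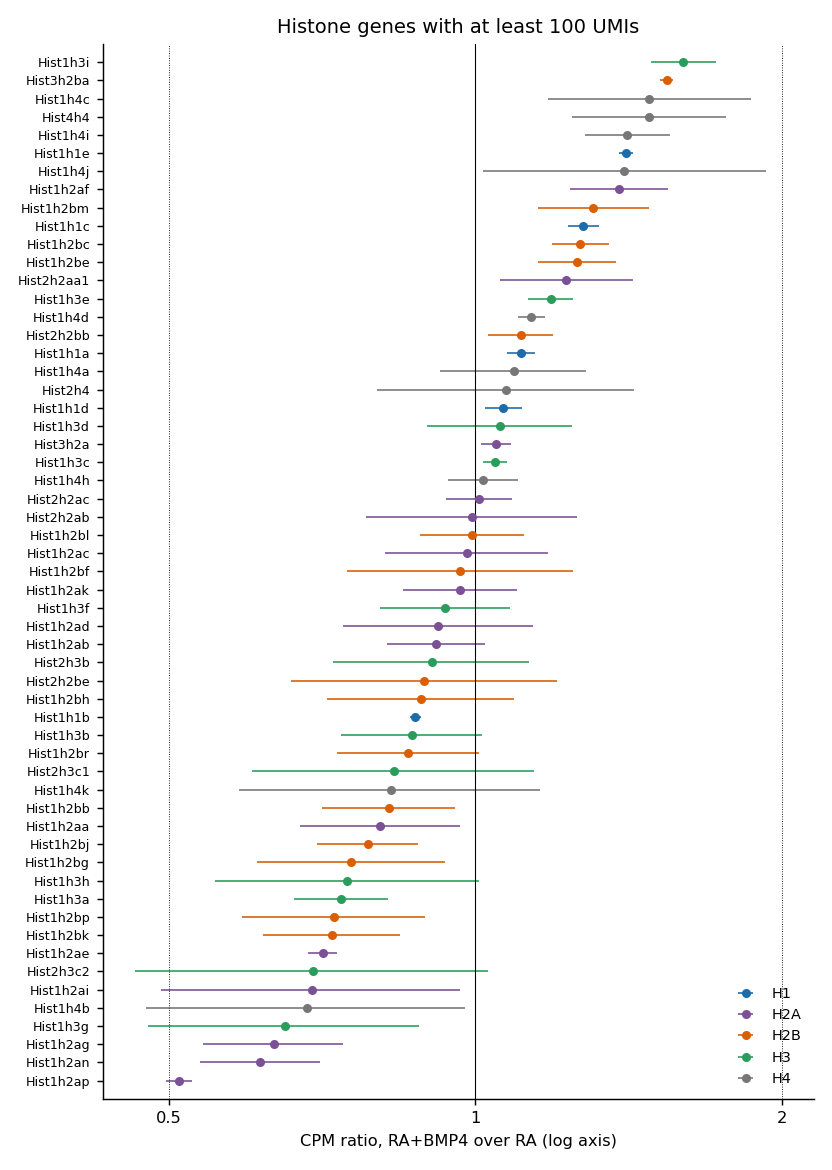
Ratio of CPM in RA+BMP4 over RA (log axis) for the 57 members with at least 100 UMIs, ordered by ratio and coloured by family, with exact 95% intervals for counting error; dotted lines mark 2-fold. H2A genes (purple) fill the lowest 3 places and no point reaches either dotted line.

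The families differed through a few genes. H2A genes together had 329 CPM in RA and 241 in RA+BMP4, a ratio of 0.734 [0.722 to 0.746]. Hist1h2ap and Hist1h2ae carried this, and the other 16 H2A genes had 114.1 and 114.4 CPM, a ratio of 1.00 [0.977 to 1.03]. Hist3h2a alone gave 62.48 and 65.45 CPM of that sum. The other H2A genes were not level one by one, with measured ratios from 0.384 (Hist1h2ao) to 1.38 (Hist1h2af). H2B genes had 368 and 532 CPM, a ratio of 1.44 [1.42 to 1.46], and the other 17 without Hist3h2ba had 74.0 and 78.2 CPM, a ratio of 1.06. H1, H3 and H4 genes had ratios of 1.07, 1.08 and 1.15, which turned to 0.765, 0.763 and 0.842 under the stricter filter. The 5 highest ratios were those of Hist1h3i (1.60 [1.49 to 1.72]), Hist3h2ba (1.54 [1.52 to 1.56]), Hist1h4c (1.48), Hist4h4 (1.48) and Hist1h4i (1.41). The 5 lowest were those of Hist1h2ap (0.512 [0.497 to 0.527]), Hist1h2an (0.615), Hist1h2ag (0.634), Hist1h3g (0.650) and Hist1h4b (0.684). Hist1h4c had only 1.22 and 1.81 CPM and Hist1h4b 0.763 and 0.522 CPM, so their ratios rest on few UMIs.

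Hist1h2ap, the H2A gene with most UMIs, was lower in RA+BMP4 in every named class. It had 367 CPM in RA and 235 in RA+BMP4 in progenitor-like, 198 and 111 CPM in pluripotent-like and 123 and 93.4 CPM in mesenchyme-like cells. In cluster 3 it had 345 and 207 CPM. It was also lower in neuron-like (20.3 and 16.9 CPM), roof plate-like (21.6 and 15.2 CPM) and newborn neuron-like cells (10.8 and 6.32 CPM). Within the roof plate-like class it had 14.9 CPM in both libraries in cluster 0 and 23.6 and 16.2 CPM in cluster 4. Most RA+BMP4 cells of the class lay in cluster 0 and most RA cells in cluster 4. The intervals of the ratio held 1 in the unnamed clusters 14 (0.992) and 16 (0.718). In S cells it had 269.6 CPM in RA and 141 in RA+BMP4. As 93.1% of its sequence is shared with other members, the difference may be read only for Hist1h2ap and its near copies together.

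Hist1h1e differed the other way, with more in RA+BMP4 in each phase class: 362 and 451 CPM in S, 353 and 565 CPM in G2/M and 165 and 262 CPM in neither cells. Hist1h3i did too, with 21.1 and 32.3 CPM in S, 17.3 and 35.4 CPM in G2/M and 3.18 and 6.21 CPM in neither cells. Over all members the ratio of the libraries was 0.991 [0.979 to 1.00] in S, 1.22 [1.21 to 1.23] in G2/M and 1.30 [1.29 to 1.32] in neither cells. S cells made up 14.3% of RA cells after thinning [13.4 to 15.2]. The S share in RA+BMP4 was 11.2% [10.5 to 11.9].

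The roof plate-like class had the largest ratio of a named class, 1.72 [1.68 to 1.76]. There Hist3h2ba had 149 CPM in RA and 361 in RA+BMP4, and Hist1h1e 135.5 and 284.6 CPM, while Hist1h1b had 78.8 and 72.6 CPM. Most RA cells of this class lay in cluster 4 (569 of 816) and most RA+BMP4 cells in cluster 0 (1879 of 2223). In cluster 0 all members had 697.5 CPM in RA and 1127 in RA+BMP4, and in cluster 4 they had 592 and 786 CPM. The direction was therefore the same within both clusters. In neuron-like cells Hist3h2ba had a ratio of 1.33 [1.31 to 1.35], and in pluripotent-like cells one of 0.949 [0.798 to 1.12], an interval that holds 1. Hist1h2aa in pluripotent-like cells had a ratio of 2.11 [1.76 to 2.53], although its ratio over the whole libraries was 0.806, since the RA library held more of these cells.

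Transcript models were then set beside the counts, as a feature that the choice by symbol did not use. The 22 members whose model runs at least 100 bases past the stem-loop gave 54.5% of member UMIs. Among the 21 of them with at least 100 UMIs, 6 in RA and 7 in RA+BMP4 had more CPM in neuron-like than in other cells, and their median ratios were 0.519 and 0.565. Of the 17 members with under 100 bases past it and at least 100 UMIs, none was higher in neuron-like cells in either library, with medians of 0.125 and 0.133. The 11 such members whose model ends at the stop codon also held none, with medians of 0.166 and 0.141. The 8 such members with no stem-loop found after the stop had medians of 0.179 and 0.269. Of these, 0 were higher in neuron-like cells in RA and 1 in RA+BMP4, Hist1h2bc at 1.03 [0.938 to 1.13]. Over all genes with at least 1 CPM the median log2 ratio was 0.01 in RA and 0.02 in RA+BMP4. A ratio above 1 was thus common among all genes, and their share above 1 was not counted. The median of every model group, the long models included, lay below that of all genes. For S over neither, the medians were 2.13 and 1.72 for the long models and 7.92 and 7.502 for the short ones. The letters AATAAA, the usual mark for cleavage before a poly(A) tail, occurred anywhere after the stop codon in 19 members. Of the 17 of these with at least 100 UMIs, 5 in RA and 6 in RA+BMP4 were higher in neuron-like cells, against 1 and 2 of the 40 without it. No distance to the transcript end was set. The last copy began 27 bases from it in Hist3h2ba and 34 in Hist3h2a, but 697 in Hist1h2be and 447 in Hist1h2bc. Longer models have more room for these letters, so this split is not separate from that by model. These counts are descriptions of annotated models, and where the UMIs lay along a transcript was not measured.

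Promoters of the members that led the patterns are shown as the 250 bases before the start site, 5′ to 3′ on the strand of the gene, from RefSeq on GRCm38.p6. The window of Hist3h2ba is chr11:58948661-58948910 on the plus strand and that of Hist3h2a chr11:58954435-58954684 on the plus strand, as the pair high in neuron-like cells. The window of Hist1h1b is chr13:21780626-21780875 on the minus strand, as the leading S phase gene, and that of Hist1h2aa chr13:23934187-23934436 on the plus strand, as the gene of pluripotent-like cells. Capitals mark the TATA box letters TATAAA, the CCAAT box letters and the octamer ATTTGCAT, each on either strand, and none of the 3 contains another.
Hist3h2ba: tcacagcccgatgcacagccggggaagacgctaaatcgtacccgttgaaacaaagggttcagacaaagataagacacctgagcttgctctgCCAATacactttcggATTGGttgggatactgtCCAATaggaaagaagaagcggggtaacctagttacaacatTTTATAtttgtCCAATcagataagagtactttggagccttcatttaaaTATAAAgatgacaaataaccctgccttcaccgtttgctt
Hist3h2a: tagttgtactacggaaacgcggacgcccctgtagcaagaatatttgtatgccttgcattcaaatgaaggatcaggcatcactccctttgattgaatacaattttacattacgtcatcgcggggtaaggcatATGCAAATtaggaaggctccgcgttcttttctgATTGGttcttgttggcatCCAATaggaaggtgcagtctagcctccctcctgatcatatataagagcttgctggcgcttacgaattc
Hist1h1b: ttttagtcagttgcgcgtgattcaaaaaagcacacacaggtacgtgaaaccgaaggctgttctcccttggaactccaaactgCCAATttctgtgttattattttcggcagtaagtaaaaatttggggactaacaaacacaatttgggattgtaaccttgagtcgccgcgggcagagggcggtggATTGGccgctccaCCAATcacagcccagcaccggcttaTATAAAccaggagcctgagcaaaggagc
Hist1h2aa: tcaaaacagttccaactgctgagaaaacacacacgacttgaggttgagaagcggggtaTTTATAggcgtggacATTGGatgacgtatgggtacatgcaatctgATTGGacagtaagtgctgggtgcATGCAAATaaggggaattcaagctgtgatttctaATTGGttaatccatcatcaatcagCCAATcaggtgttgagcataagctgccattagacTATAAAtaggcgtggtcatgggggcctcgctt
A promoter was matched for 61 of the 67 members and searched over 300 bases, 50 of them after the start. TATAAA was found in 57.4% of member promoters and in 13.6% of the 32851 promoters in the table. CCAAT was found in 85.2% against 37.4%, in all promoters of the H1, H2A, H2B and H3 families and in 3 of 12 H4 promoters. The octamer was found in 23% of member promoters and in 1.74% of all, in 7 of 17 H2A and 7 of 16 H2B promoters and in none of the others. Some H2A and H2B windows overlap, as described below, so the same motif can count for both genes of a pair. The counts of all 3 motifs are therefore not counts of separate promoters. The octamer is the sequence bound by Oct family factors, known from the control of H2B genes. Hist3h2a and Hist1h2aa hold it, Hist3h2ba and Hist1h1b do not, and Hist3h2a has no TATAAA in its window.

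Many H2A and H2B genes lie head to head and share 1 promoter region, and 9 such pairs had windows that overlap. The counts of the partners were unequal. Hist1h2ae had 15615 UMIs and its partner Hist1h2bg had 370, a 42.2-fold gap and the largest among pairs with at least 10 UMIs in both. Hist1h2ao had 53 UMIs and Hist1h2bq 1. The smallest, 1.41-fold, was between Hist1h2ad (353 UMIs) and Hist1h2bf (251 UMIs). Hist1h2aa had 503 UMIs and Hist1h2ba 25, with 220 bases of window in common.

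Genes that act on histones and their mRNAs were followed from fixed lists. Of 13 genes for transcription, processing and decay of histone mRNA, 5 were at least 2-fold higher in S than in neither cells of RA and 2 in RA+BMP4, beside 14.6% and 12.7% of all genes. The count in RA+BMP4 is near the share of all genes. Slbp, the stem-loop binding protein, had 164 and 54.2 CPM in RA and 172 and 55.0 CPM in RA+BMP4. Casp8ap2, a part of the nuclear body where these genes are transcribed, had ratios of 2.55 and 2.44, and Npat, the coactivator of histone genes at the start of S phase, had 2.14 and 1.75. Eri1, the exonuclease that trims the histone mRNA end, had 2.18 and 1.90, and Zfp473, which binds the processing complex, had 2.92 and 1.72 at no more than 1.49 CPM.

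Of 16 histone chaperones and carriers, 6 were at least 2-fold higher in S cells in each library, beside the same 14.6% and 12.7% of all genes. Asf1b, which hands H3 and H4 to the assembly factor, had ratios of 14.7 and 16.6, and Chaf1a and Chaf1b, subunits of that factor, 12.1 and 11.2 and 10.2 and 10.6. Hat1, which acetylates new H4, had 7.95 and 5.53, Nasp, which stores soluble histones, 3.295 and 3.002, and Rbbp7 3.35 and 2.99. Of 11 replication-independent histone genes, 3 were at least 2-fold higher in S cells in each library, again beside 14.6% and 12.7% of all genes, namely H2afx (3.77 and 3.01), H2afz (2.49 and 2.38) and the centromeric Cenpa (5.79 and 4.74). The H3.3 genes H3f3a and H3f3b were lower in S cells, with ratios of 0.673 and 0.813, and 0.667 and 0.663, as was the linker histone H1f0 with 0.686 and 0.793. The S and G2/M lists that set the phase had 39 and 38 of 39 and 46 and 43 of 53 genes at least 2-fold higher in S, which is no result, since these genes set the phase. None of the genes in these 5 lists was 2-fold apart between the libraries, and the lowest ratio of RA+BMP4 over RA among chaperones was that of Rbbp7, 0.558.

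Finally, genes were ranked by how their log2(CPM + 1) followed that of the summed members across 32 sums, each of 1 cluster in 1 library with at least 100 cells. Among 13861 other genes the highest Pearson coefficients were those of Eri1 (0.889), Cep295 (0.871), Lmnb1 (0.870), Ncapd2 (0.869) and Rangap1 (0.868). Ckap5 (0.862), Dnmt1 (0.862), Rad21 (0.853), Ska2 (0.842) and Cenpc1 (0.838) followed. The sums share libraries and clusters and are not independent, so the coefficients are a description. Ncapd2, Rangap1 and Ckap5 are in the G2 and M phase list. Eri1, the only one from the list of histone mRNA genes, ranged from 33.7 to 98.3 CPM over these sums.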

How the data were processed

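Single-cell RNA was captured from 1 RA and 1 RA+BMP4 culture and sequenced on 1 lane. The deposited matrices hold whole UMI counts per gene and barcode, made by the authors with Cell Ranger 3.0.2 and CASAVA on GRCm38, per the submitters' processing notes. From these counts, cells with at least 1000 genes and at most 10% mitochondrial counts were kept, and doublets called by Scrublet (expected 8%) removed. Cells were clustered with scanpy 1.11.5 and leidenalg 0.10.2 (3000 variable genes, 30 components, 20 neighbours, resolution 1), leaving out the histone genes, the listed genes and the markers. This gave 19 clusters, of which 14 were named from markers. Phases were scored on cells thinned to 5000 UMIs. Cells are not replicates, so UMIs were summed and only counting intervals given, and 2-fold was the threshold at a CPM of at least 1 or 20. TMM factors came from edgeR 4.0.16, as an alternative. The calculation of ratios and calls was tested on simulated data. UMIs were counted from 3′ ends, and intervals cover counting error only.

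The members and lists were chosen with earlier results of these data known. Members named are the 3 of each family with most UMIs, the 5 highest and 5 lowest ratios between the libraries and between S and neither cells, and those with no UMI. Hist1h1c, Hist1h1d, Hist1h1t, Hist1h2ad, Hist1h2ah, Hist1h2ao, Hist1h2ba, Hist1h2be, Hist1h2bf, Hist1h2bg, Hist1h2bq, Hist2h2aa2, Hist2h2ac and Hist2h3c1 were named after their values or sequences were seen.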

Additional observations from a re-analysis of the deposited data

Results flagged for a closer look

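Histone gene counts were also present in barcodes that failed the cell filter and enter no comparison above. These barcodes, 3666 in RA and 4471 in RA+BMP4, held 10095 and 8517 UMIs of the members, or 1200 and 1241 CPM, at median depths of 1081 and 1096 UMIs. The leading members there were Hist3h2ba (19.1% and 25.2% of member UMIs), Hist1h1e (17.4% and 21.4%) and Hist1h1b (12.7% and 11.1%).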

How the results depend on the processing

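No paired analysis was possible because each condition had 1 library and the labels carry no replicate numbers. The summed ratio of RA+BMP4 over RA, 1.09, turned to 0.8447 under the stricter filter of 2000 genes and 5% mitochondrial UMIs, which left 1247 of 5896 RA and 5884 of 8333 RA+BMP4 cells; the cause was not tested. It was 1.106 without pluripotent-like cells, 1.036 with median-of-ratios factors, 1.046 with TMM factors, 1.082 with each cell weighted equally, 1.005 without Hist3h2ba and Hist3h2a and 1.17 without Hist1h1b. The scaling factors moved all genes by 0.06 (TMM) and 0.07 (median of ratios) on the log2 scale. Members 2-fold apart numbered 3 under the stricter filter, Hist3h2ba higher and Hist1h2ae and Hist1h2ap lower, and 1, Hist1h2ap, with either set of factors or equal weights.

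The S over neither ratios of 2.716 in RA and 2.067 in RA+BMP4 became 3.602 and 2.254 under the stricter filter, 2.794 and 2.163 with doublets kept, 2.937 and 2.481 with scores at 10000 UMIs, and 2.927 and 2.707 with phases by list shares. They became 3.647 and 2.856 without neuron-like cells and 6.817 and 4.616 without Hist3h2ba and Hist3h2a, and the RA ratio 2.847 without pluripotent-like cells. The neuron-like over other ratios of 0.6516 and 0.8051 became 0.4699 and 0.7579 under the stricter filter, 0.5975 and 0.7881 at clustering resolution 1.5, 0.7125 and 0.9194 with equal weights, 0.2047 and 0.2881 without Hist3h2ba and Hist3h2a, 0.7896 in RA+BMP4 with doublets kept and 0.6372 in RA without clusters 14 and 16.

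Of 189 alternatives for 27 named members, 131 moved the ratio by less than its interval, 47 moved it further and 11 turned its direction. Under the stricter filter Hist1h1a fell to 0.7886, Hist2h2bb to 0.7876, Hist1h3c to 0.7103, Hist1h3e to 0.9358, Hist1h4d to 0.8144 and Hist1h2af to 0.9507. Hist3h2a was at 0.9532 without pluripotent-like cells, 0.9952 with median-of-ratios factors and 0.9392 with equal weights, and Hist1h3c at 0.9932 and 0.931 under the latter settings. By family, the stricter filter turned H1 to 0.7649, H3 to 0.7626 and H4 to 0.8417, and H2A was at 1.002 without Hist1h2ap and Hist1h2ae; the other alternatives turned no family. The alternatives by family, and those that leave out members, neuron-like cells or clusters 14 and 16, were chosen after seeing the data. Counts of members with few UMIs limit their ratios.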
